A study of Mus musculus with 21 samples.

Results

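The early glucocorticoid response of fat cells was described from 6 of the 21 Affymetrix arrays of the series, 3 of cells given dexamethasone (Dex) for 2 h and 3 of control cells. The arrays were chosen by their labels and not by any measured value. All cells were 3T3-L1, an established mouse line of preadipocytes that had been differentiated into adipocytes for 14 days. The treated group received 20 nM Dex, a synthetic glucocorticoid, and the control group, labelled 0 h, received no agent. No vehicle is named in the labels, so the effect of Dex and that of handling the dishes cannot be told apart. The other 15 arrays are of Dex for 24 h and 6 d and of TNF (tumour necrosis factor alpha, a cytokine of inflammation) for the same 3 times.

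Dex enters the cell and binds the glucocorticoid receptor, a steroid hormone receptor held in the cytoplasm by chaperones. The bound receptor moves to the nucleus, where it binds DNA at glucocorticoid response elements and raises transcription, while it lowers transcription of many inflammatory genes. In adipocytes glucocorticoids are known for promoting differentiation, for altering lipolysis and for reducing the response to insulin.

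The 6 arrays were alike in quality. Degradation of RNA raises the 3' over the 5' signal of Actb and Gapdh, and that log2 difference was 0.112 to 0.283 on the control arrays and 0.123 to 0.245 on the Dex 2 h arrays. Within each group the correlations across genes were 0.987 or higher. Adipocyte markers were high in both groups, with a mean of the 9 measured at 13.3 to 13.4 on the log2 scale in control and 13.2 to 13.3 after Dex. By limma 0 of them were called, and 1 was lower at an unadjusted p under 0.05. Of 10 macrophage markers 6, of 7 endothelial markers 6 and of 6 T and B lymphocyte markers 3 stayed below 5.34 on all 6 arrays. The 4 macrophage, 1 endothelial and 3 lymphocyte markers that were tested were not called. The level of 5.34, the median of all values in the series, is treated here as near background. It does not by itself tell whether a cell type is present. Among 10 tested preadipocyte and fibroblast markers Pdgfrb, a growth factor receptor, fell (-0.71 ± 0.14), and among 4 tested smooth muscle markers Myh11, a myosin, rose (0.79 ± 0.14). The part of such cells in the results below was not tested.

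All changes below are log2 fold changes of Dex 2 h minus control ± standard error (SE), with 3 arrays in each group. The spread behind the SE came from 20 arrays of the series. Left out of it was replicate 2 of TNF 6 d, an array of a group not compared here, with a 3' minus 5' difference of 2.00. Genes were called at a two-sided limma p below 0.05 after Benjamini-Hochberg adjustment over the 12156 genes tested. Including that array changes no fold change here but widens the errors, so counts with all 21 arrays are given in brackets.

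After 2 h of Dex 866 genes were called, 7.12% of those tested (301 and 2.48% with all 21 arrays). Of these 522 rose (4.29%) and 344 fell (2.83%), against 202 (1.66%) and 99 (0.814%) with all 21 arrays. The change was at least 2-fold for 246 genes (2.02%), 170 up (1.4%) and 76 down (0.625%), and each of the 246 tested genes with a change of that size was called. At the other end 93.3% of tested genes changed by less than 0.5, and the median change was -0.015. The rises reached further than the falls. Of the called genes 56 rose by 2 or more on the log2 scale and 10 fell by as much. The control level of 21 risers was below 5.34, as was the Dex 2 h level of 31 fallers, so these changes are read as lower limits.

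**Figure D1:**
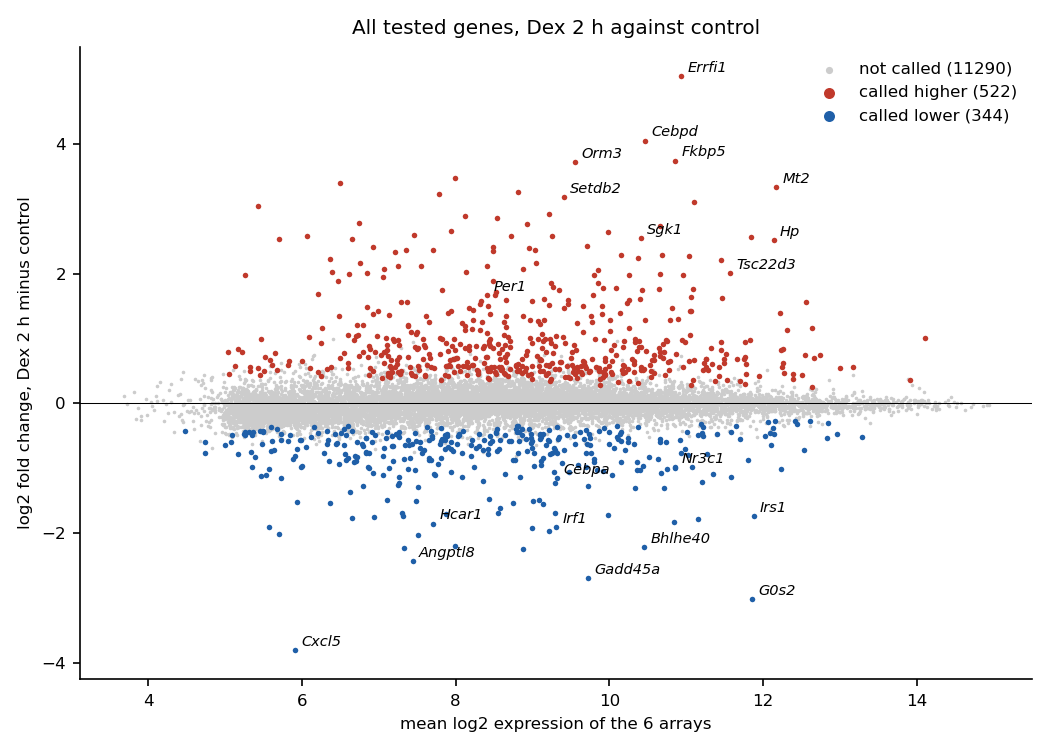
Log2 fold change of Dex 2 h minus control (vertical) against the mean log2 expression of the 6 arrays (horizontal) for 12156 tested genes. Red points are the 522 genes called higher, blue points the 344 called lower and grey points the rest, and rises extend up to 5.05 (Errfi1) while falls extend to -3.81 (Cxcl5).

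Errfi1, a feedback inhibitor of the EGF receptor, had values of 8.32, 8.48 and 8.42 on the control arrays and 13.50, 13.45 and 13.44 on the Dex 2 h arrays. The groups were far apart and each varied by less than 0.2, a rise of 5.05 ± 0.12 or 33.2-fold (limma adjusted p = 7.31e-17). Cebpd, an early transcription factor of adipocyte differentiation, stood at 8.44, 8.56 and 8.33 in control and at 12.56, 12.51 and 12.42 after Dex, a 16.6-fold rise (4.05 ± 0.15, limma adjusted p = 1.54e-13). Fkbp5, a co-chaperone that lowers hormone binding by the receptor, went from 8.86, 8.97 and 9.12 to 12.77, 12.68 and 12.75, a 13.4-fold rise (3.74 ± 0.12, limma adjusted p = 1.64e-14). In each of these genes the lowest Dex array was more than 3 log2 units above the highest control array.

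The other genes of the 15 largest rises differ in kind. Orm3, an acute phase plasma glycoprotein, rose from 7.75, 8.03 and 7.31 to 11.44, 11.27 and 11.53, or 13.1-fold. Bdnf, a neurotrophin, rose from 6.06, 6.52 and 5.92 to 9.54, 9.34 and 9.31, or 9.36-fold. Mertk, a receptor tyrosine kinase used in the uptake of dying cells, rose from 7.22, 7.01 and 7.31 to 10.46, 10.43 and 10.43, or 9.58-fold. The groups did not overlap in any of these genes. Cpm, a membrane carboxypeptidase, was below background in control (3.80, 4.09 and 3.82) and varied more than the others after Dex (7.48, 6.93 and 6.42), so its rise of 3.04 ± 0.25 is a lower limit. The same holds for Ifi207, of the interferon-inducible p200 family (4.41, 4.70 and 5.26 against 8.19, 8.15 and 8.24).

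Setdb2, a histone lysine methyltransferase, rose from 7.63, 7.84 and 7.99 to 11.18, 11.13 and 10.69 (3.18 ± 0.13, 9.08-fold). Gadd45g, a stress sensor of the Gadd45 family, rose from 9.64, 9.73 and 9.27 to 12.68, 12.68 and 12.59 (3.10 ± 0.13). Mt2, a metal-binding metallothionein, rose by 3.34 ± 0.13 to a level of 13.84 ± 0.08 (SD, n = 3). Fam107a, an actin-associated protein of stress responses (3.47 ± 0.26), Tcim (2.92 ± 0.22), Ear3, a ribonuclease (2.89 ± 0.21), and Ccn1, a matricellular protein (2.85 ± 0.13), were the remaining genes of the 15. The probe sets above background of some of these genes differed in size, from 1.11 to 4.05 for Cebpd, 2.10 to 3.47 for Fam107a, 1.97 to 3.23 for Bdnf and 1.84 to 2.85 for Ccn1. All 15 were also called with all 21 arrays.

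Cxcl5, a chemokine for neutrophils, fell most, from 7.70, 7.86 and 7.88 to 3.84, 4.21 and 3.96. Its Dex level was near background, so the fall of 3.81 on the log2 scale, or 14.0-fold, is a lower limit (SE 0.18, limma adjusted p = 4.5e-12). G0s2, which binds and inhibits the lipase Pnpla2, fell 8.12-fold, from 13.42, 13.54 and 13.15 to 10.60, 10.24 and 10.19. Gadd45a, a relative of Gadd45g that moved the other way, fell 6.47-fold, from 11.04, 10.99 and 11.19 to 8.24, 8.35 and 8.54. Angptl8, an insulin-induced partner of lipoprotein lipase inhibitors, fell 5.4-fold, from 8.49, 9.09 and 8.39 to 6.53, 6.23 and 5.92. In all 4 genes the highest Dex array was below the lowest control array.

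Smad6, an inhibitor of BMP signalling, fell from 9.07, 9.31 and 8.89 to 6.88, 6.94 and 6.84 (-2.20 ± 0.15). Bhlhe40, a repressor in the clock, fell from 11.54, 11.47 and 11.67 to 9.57, 9.13 and 9.32 (-2.22 ± 0.18). The MAP kinase phosphatases Dusp10 (-2.03 ± 0.15) and Dusp4 (at least -2.01 ± 0.22), the activin subunit gene Inhbb (-1.92 ± 0.18) and the transcription factor gene Irf1 (-1.91 ± 0.10) fell with them. So did the receptor genes Ptger4, for prostaglandin E (at least -1.91 ± 0.28), and Hcar1, for lactate (-1.86 ± 0.13), and also B3galt2, a galactosyltransferase (-2.22 ± 0.20), Fam43a (-2.24 ± 0.19) and Sertad4 (-1.96 ± 0.20).

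**Figure D2:**
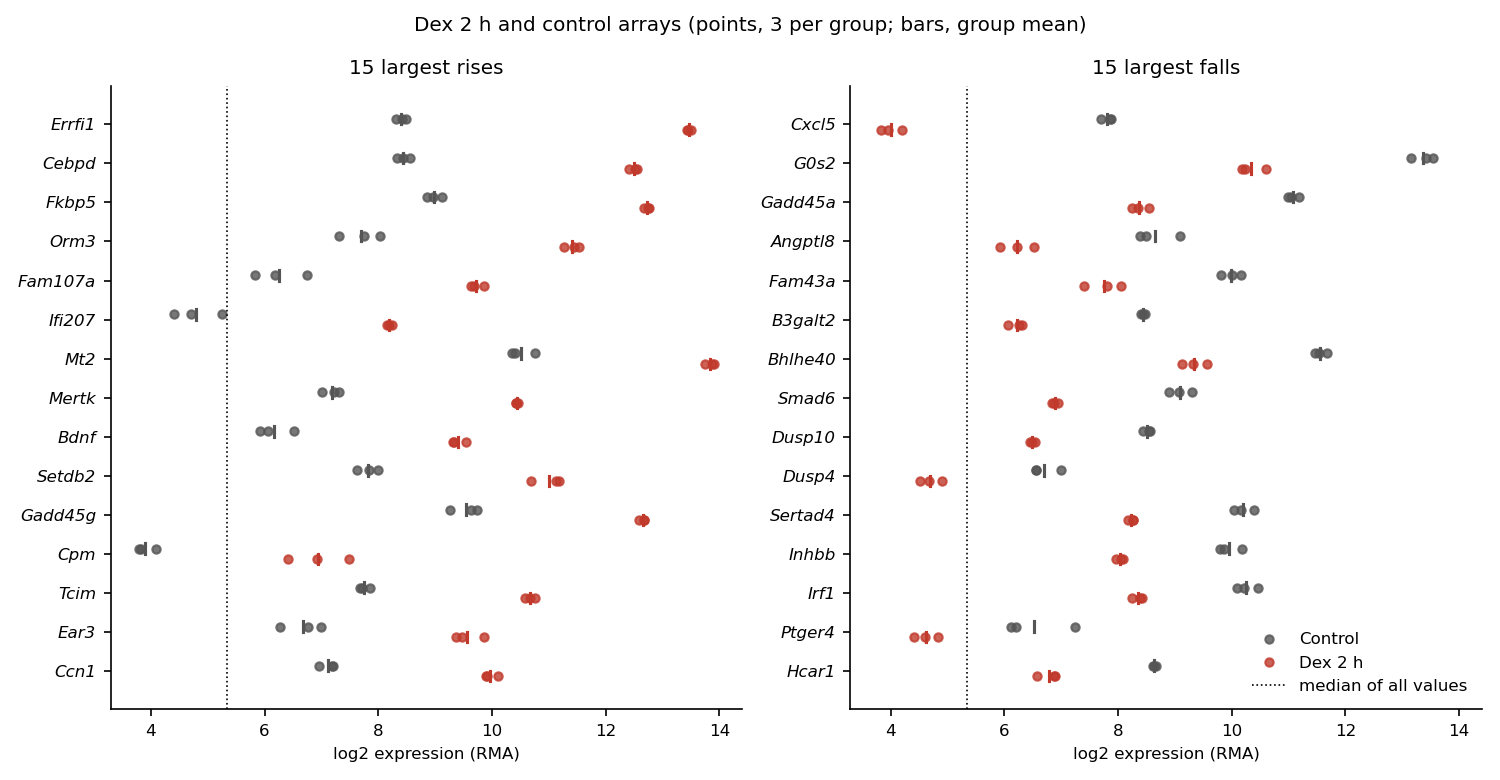
Log2 expression (horizontal) of the 15 genes with the largest rises (left) and the 15 with the largest falls (right), with 3 control arrays in grey and 3 Dex 2 h arrays in red as points and each group mean as a bar. In all 30 genes the arrays of the groups do not overlap, and the dotted line marks the median of all values (5.34), below which Cpm and Ifi207 lie in control and Cxcl5, Dusp4 and Ptger4 after Dex.

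The genes were next grouped into 24 lists by role. Members beyond the 3 largest changes of a list were chosen after their values were seen. Over all tested genes 7.12% were called and the median change was -0.015, which is the background for each count below. The lists were chosen with earlier results of these data known. A count above that background therefore describes a list and does not test it.

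Of 37 genes listed as glucocorticoid-induced, 34 were tested and 25 rose, 1 fell and 8 were not called (22 and 1 with all 21 arrays), with a median change of 1.62. Besides those above, Sgk1, a kinase that regulates ion transport, rose from 9.0, 9.06 and 9.36 to 11.57, 11.73 and 11.75 (2.54 ± 0.12, 5.83-fold). Tsc22d3, the leucine zipper protein GILZ, rose from 10.51, 10.46 and 10.74 to 12.57, 12.55 and 12.60 (2.00 ± 0.22, 4.01-fold). Zfp36, which binds unstable messenger RNAs of cytokines for decay, rose by 2.42 ± 0.15 and Zbtb16, a zinc finger repressor, by 2.17 ± 0.19. Glul, glutamine synthetase, rose by 1.13 ± 0.10. Klf9 (0.36 ± 0.14, limma adjusted p = 0.148) and Klf15 (0.73 ± 0.27, limma adjusted p = 0.137), both classic targets of the receptor, were not called. For Klf15, control replicate 3 (10.06) was below its mates (10.72 and 10.93) and all 3 Dex arrays were above the control range. The faller was Angptl4, an inhibitor of lipoprotein lipase, with 12.83, 12.72 and 12.66 in control and 11.83, 11.84 and 11.48 after Dex (-1.02 ± 0.12).

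A glucocorticoid response element joins the hexamer AGAACA, 3 free bases and TGTTCT. It was searched as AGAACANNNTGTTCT, a palindrome that reads alike on both strands, with up to 2 mismatches at its 12 fixed bases. The windows were RefSeq promoters of GRCm38.p6, from 250 bases before to 50 after each listed start, which matched 9806 of the tested genes by symbol, some with several starts. The element without a mismatch was found in 1 of these 9806 genes, and that gene was Sgk1. With up to 2 mismatches it was found in 1.31% of all genes with a window and in 2.66% of the 414 called higher. It was in 0.743% of the 269 called lower and in 1.69% of the 59 that fell at least 2-fold. Among the 133 that rose at least 2-fold it was found in 4.51%. Those 133 include 6 holders, among them Fam107a and Bdnf of the largest rises. The holders called lower were Ptger4, of the largest falls, and Mid1ip1 (-0.97). A part of the element in any rise or fall was not tested. Stretches of 5 of the 6 holders are shown, with the element in capitals and each read 5' to 3' on the strand of the gene.
Sgk1: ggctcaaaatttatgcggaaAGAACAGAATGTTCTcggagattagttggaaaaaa
Fam107a: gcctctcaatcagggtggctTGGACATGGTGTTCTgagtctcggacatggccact
Bdnf: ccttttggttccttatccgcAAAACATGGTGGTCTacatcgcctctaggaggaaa
Slc10a6: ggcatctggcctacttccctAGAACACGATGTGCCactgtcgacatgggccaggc
Hoxd3os1: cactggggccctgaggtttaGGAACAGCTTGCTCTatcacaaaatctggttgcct

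The Sgk1 stretch lies at chr10:21993681-21993735 on the plus strand, with the element starting 189 bases before a start of the gene. The Fam107a stretch lies at chr14:8309864-8309918 on the minus strand, with the element starting 119 and 121 bases before 2 listed starts. The Bdnf stretch lies at chr2:109722776-109722830 on the plus strand, 125 bases before a start. Those of Slc10a6, a steroid sulfate carrier (1.49 ± 0.25), at chr5:103629533-103629587, and of the antisense transcript Hoxd3os1 (1.39 ± 0.38), at chr2:74716233-74716287, are on the minus strand. The sixth holder, Map7d2 (2.58 ± 0.17, from a control level below background), has its element after the start. The groups overlapped for Hoxd3os1, which was not called with all 21 arrays. A hexamer AGAACA or TGTTCT alone was found in 15.5% of the genes called higher, 16.0% of those called lower and 14.8% of all. The motif of the C/EBP family TTGCNNAA, on either strand, was in 11.8%, 10.8% and 9.8%. These are matches of letters in short windows, and elements elsewhere were not searched.

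Of 23 tested genes of the glucocorticoid receptor machinery 1 rose and 2 fell (1 and 0 with all 21 arrays), with a median of 0.04. The riser was Fkbp5. Nr3c1, the receptor itself, fell from 11.29, 11.31 and 11.46 to 10.40, 10.43 and 10.27 (-0.99 ± 0.13, limma adjusted p = 2.11e-05, and 0.492 with all 21 arrays). Its 5 probe sets above background all changed downwards, by -1.26 to -0.52. Nr2f2, an orphan nuclear receptor, was lower by -0.87 ± 0.26, but its groups overlapped and its limma adjusted p of 0.0423 rose to 0.247 without control replicate 1, 0.216 without control replicate 2, 0.0671 without Dex 2 h replicate 1 and 0.259 without Dex 2 h replicate 2. Hsd11b1, the enzyme that makes active glucocorticoid in fat cells, stood at 0.10 ± 0.18 and was not called.

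Transcription factors moved in both directions. Of 15 Kruppel-like factors 2 rose and 4 fell (2 and 2 with all 21 arrays), with a median of 0.08. Klf10, induced by TGF-beta in many cells, fell from 8.58, 8.67 and 8.94 to 7.19, 6.97 and 6.92 (-1.71 ± 0.14, limma adjusted p = 1.57e-08, and 0.158 with all 21 arrays), and Klf3, a repressor of adipogenesis, fell by 1.56 on the log2 scale (SE 0.11, limma adjusted p = 1.44e-09, and 0.0854 with all 21 arrays). The 5 Klf3 probe sets above background ranged from -1.56 to -0.35. Klf11 (-0.88 ± 0.10) and Klf7 (-0.77 ± 0.16) fell too, while Klf5, a factor of early adipogenesis near background in control (0.99 ± 0.19), and Klf2 (0.55 ± 0.12) rose. Of 29 AP-1, EGR and other immediate early genes 5 rose and 2 fell (5 and 1 with all 21 arrays), with a median of 0.13. The risers besides Gadd45g and Ccn1 were Myc, a growth regulator (1.24 ± 0.15), and the small Maf factors Maff (1.0 ± 0.19) and Mafk (0.87 ± 0.15). Gadd45a and Ier5 (-1.08 ± 0.13) fell.

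Of 17 clock genes 3 rose and 3 fell (3 and 1 with all 21 arrays), with a median of 0.004. Nfil3, a repressor at D-box elements, rose from 7.75, 7.80 and 7.97 to 10.01, 9.91 and 9.82 (2.07 ± 0.16). Per1, a period gene and direct target of the receptor, rose from 7.49, 7.68 and 7.55 to 9.43, 9.11 and 9.20 (1.67 ± 0.17). Ciart, a repressor of the clock activators, rose by 0.89 ± 0.16. The fallers were Bhlhe40, Dbp, an activator at the same D-box elements (-1.08 ± 0.14), and Nr1d1, the repressor REV-ERB alpha (-0.60 ± 0.16).

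Feedback inhibitors of MAP kinase and growth factor signalling had the second highest share of called members of the 24 lists. Of 27 tested, 7 rose and 10 fell (6 and 4 with all 21 arrays), or 63%, with a median of -0.32. Within the MAP kinase phosphatases Dusp1 rose from 8.58, 8.92 and 8.49 to 11.38, 11.20 and 11.33 (2.64 ± 0.21), Dusp14 by 2.65 ± 0.25 and Dusp16 by 0.98 ± 0.14. Dusp10 fell from 8.45, 8.57 and 8.54 to 6.45, 6.54 and 6.49, and Dusp4, Dusp5 (-0.46 ± 0.13) and Dusp7 (-0.65 ± 0.17) fell as well. The Sprouty genes Spry1 (-0.72 ± 0.10) and Spry4 (-1.26 ± 0.30) fell while Errfi1 rose. Among the suppressors of cytokine signalling Socs2, which restrains growth hormone signalling, rose by 2.29 ± 0.18, whereas Socs1 (-0.76 ± 0.22), Socs3 (-1.01 ± 0.29) and Cish (-0.58 ± 0.15) fell. The calls of Socs1 (limma adjusted p = 0.0411), Socs3 (0.0373), Cish (0.0165), Dusp5 (0.0342), Dusp7 (0.0228) and Spry4 (0.0112) were lost with all 21 arrays. Rgs2, which shortens G protein signals, rose by 1.16 ± 0.21, and Rasd1, a Ras-like protein, fell by 1.52 on the log2 scale (SE 0.16).

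Of 37 insulin signalling genes 3 rose and 3 fell (0 and 2 with all 21 arrays), with a median of -0.05. Irs1, the receptor substrate that recruits PI3-kinase, fell from 12.66, 12.73 and 12.85 to 10.99, 10.94 and 11.10 (-1.73 ± 0.14, limma adjusted p = 1.65e-08). Among the PI3-kinase regulatory subunits Pik3r1 rose (0.70 ± 0.14, limma adjusted p = 0.00161, and 0.13 with all 21 arrays) and Pik3r3 fell (-0.69 ± 0.13). Akt2, the main Akt kinase of insulin action, fell by 0.37 on the log2 scale (SE 0.10), while the Akt phosphatase Phlpp1 (0.51 ± 0.14) and the adaptor Grb2 (0.49 ± 0.12) rose. Irs2 ranged from 7.91 to 9.46 in control and from 8.41 to 9.18 after Dex and was not called. Insr, the insulin receptor (0.03 ± 0.20), and Slc2a4, the insulin-regulated glucose transporter (-0.03 ± 0.11), were not called either. Of 24 FoxO factors and brakes on mTOR 5 rose and 0 fell (3 and 0 with all 21 arrays), with a median of 0.09. Foxo3 rose from 9.29, 9.49 and 9.57 to 10.95, 10.98 and 11.07 (1.55 ± 0.18) and Foxo1, the other main FoxO factor, by 0.96 ± 0.13. The 3 Foxo3 probe sets above background ranged from 0.43 to 1.55. Ddit4, which restrains mTOR, went from 11.50, 11.56 and 11.53 to 12.92, 12.86 and 12.96 (1.39 ± 0.19, limma adjusted p = 4e-05, and 0.138 with all 21 arrays). Sesn1, a sestrin (0.88 ± 0.18), and Gabarapl1, of the autophagosome (0.62 ± 0.15), were the remaining risers.

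Of 34 genes of pyruvate and glucose handling 3 rose and 3 fell (1 and 1 with all 21 arrays), with a median of 0.03. Pdk4, the kinase that shuts off pyruvate dehydrogenase, rose from 7.01, 7.31 and 7.60 to 9.75, 9.62 and 9.60 (2.35 ± 0.18). Pdp1, the phosphatase that turns the same enzyme on, rose with it, from 7.46, 7.49 and 7.73 to 8.95, 9.24 and 9.07 (1.53 ± 0.12, limma adjusted p = 2.19e-08, and 0.119 with all 21 arrays). Pfkfb4, a regulator of glycolysis, rose by 0.46 ± 0.11. The fallers were Pck1, the enzyme of glycerol synthesis from pyruvate (-1.13 ± 0.17), and Ppp1r3b (-0.98 ± 0.25) and Ppp1r3d (-1.09 ± 0.20), which target a phosphatase to glycogen.

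Of 22 lipases and lipid droplet proteins 1 rose and 3 fell (0 and 3 with all 21 arrays), with a median of -0.11. G0s2, Angptl4 and Plin2, a droplet coat protein (-0.71 ± 0.09), fell, and Abhd5, the activator of Pnpla2, rose by 0.60 ± 0.10 (not called with all 21 arrays). Pnpla2 itself, the lipase that G0s2 and Abhd5 act on, stood at 11.26, 11.30 and 11.26 in control and 11.38, 11.26 and 11.38 after Dex and was not called (0.07 ± 0.08). Lipe, hormone-sensitive lipase, was at -0.42 ± 0.14 (limma adjusted p = 0.0932). Of 26 receptors and cyclic AMP genes 1 rose and 5 fell (1 and 4 with all 21 arrays), with a median of -0.08. Hcar1, Hcar2, for ketone bodies and niacin (-1.14 ± 0.22), and Ffar2, for short-chain fatty acids (-1.03 ± 0.19), are receptors that lower cyclic AMP, and these 3 fell. So did Ptger4, a receptor that raises cyclic AMP (at least -1.91 ± 0.28). The other listed receptors, such as Adora1 and Ptger3, were not among the called genes. Of the called adenylyl cyclases, which make cyclic AMP, Adcy9 and Adcy6 split, with Adcy9 up (0.85 ± 0.14) and Adcy6 down (-0.60 ± 0.11).

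Of 31 triglyceride and fatty acid synthesis genes 2 rose and 6 fell (1 and 1 with all 21 arrays), with a median of -0.08. The phosphatidate phosphatases Lpin1 (0.76 ± 0.11) and Lpin2 (0.53 ± 0.11) rose. Besides Pck1, the acyltransferases Gpat3 (-0.79 ± 0.13), Gpam (-0.29 ± 0.08), Dgat1 (-0.27 ± 0.08) and Dgat2 (-0.45 ± 0.11) and the dehydrogenase Gpd1 (-0.30 ± 0.08) fell. Of 25 adipogenic factors and identity genes 3 rose and 2 fell (2 and 2 with all 21 arrays), with a median of -0.09. The C/EBP family split. Cebpd rose, Cebpb rose from 12.63, 12.55 and 12.99 to 13.25, 13.30 and 13.27 (0.55 ± 0.09, limma adjusted p = 2.6e-04, and 0.0965 with all 21 arrays), and Cebpa, the factor of mature adipocytes, fell from 10.12, 9.96 and 9.60 to 8.97, 8.62 and 8.62 (-1.16 ± 0.19). Zfp467, a cofactor of adipogenesis, fell by 1.75 on the log2 scale (SE 0.16), and Rxra, the partner of Pparg, rose by 0.58 ± 0.09. Pparg (-0.19 ± 0.11), Adipoq, adiponectin (-0.03 ± 0.06), and Lpl, lipoprotein lipase (-0.10 ± 0.05), were not called. For each gene all 3 Dex arrays were still below the control range, as were 12.8% of tested genes (12.4% were above it, 25.1% in all). Control levels of Adipoq (14.88) and Lpl (14.68) were near the highest value of the series (15.06), so changes in them may be understated.

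Of 20 acute phase and complement genes 7 rose and 0 fell (3 and 0 with all 21 arrays), with a median of 0.18. Haptoglobin, Hp, which binds free haemoglobin, rose from 10.77, 10.91 and 10.97 to 13.39, 13.30 and 13.50 (2.51 ± 0.06). Serpina3n, a protease inhibitor, rose by 1.88 ± 0.25. Lcn2, an iron-sequestering lipocalin, rose from 5.35, 5.33 and 5.41, close to background, to 6.94, 6.73 and 7.47 (1.68 ± 0.35, limma adjusted p = 0.0034, and 0.544 with all 21 arrays). All 3 orosomucoid genes rose, Orm1 by 0.56 ± 0.12 and Orm2 by 0.67 ± 0.17 besides Orm3. These genes belong to 1 family, so their probe sets may share signal.

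Of 32 chemokines and cytokines 2 rose and 4 fell (0 and 1 with all 21 arrays), with a median of -0.14. The fallers besides Cxcl5 were Ccl7 (-1.27 ± 0.20, limma adjusted p = 1.2e-04, and 0.463 with all 21 arrays), Ccl2 (-0.77 ± 0.20, limma adjusted p = 0.0176) and Cxcl1 (-0.48 ± 0.13). The Ccl2 call was lost without control replicate 1 (limma adjusted p = 0.132), control replicate 2 (0.0534) or Dex 2 h replicate 3 (0.121). Kitl, stem cell factor (1.47 ± 0.14), and Ccl9 (0.64 ± 0.18) rose. Il6, an inflammatory cytokine, was near background on all 6 arrays and not called. Of 34 NF-kB and toll-like receptor genes 7 rose and 1 fell (3 and 0 with all 21 arrays), with a median of 0.04. Nfkbia, the inhibitor that holds NF-kB in the cytoplasm, rose from 11.93, 11.91 and 11.49 to 13.36, 13.30 and 13.36 (1.56 ± 0.10), and Nfkbiz, a nuclear relative of it, by 1.85 ± 0.12. The inhibitor Tnfaip3 (0.69 ± 0.15) and both TNF receptors, Tnfrsf1a (0.68 ± 0.11) and Tnfrsf1b (2.41 ± 0.15), rose too. Tnfrsf1b had a second probe set above background that stood at -0.03. Of 33 interferon response genes 2 rose and 3 fell (0 and 1 with all 21 arrays), with a median of -0.12. Irf1 fell from 10.21, 10.10 and 10.46 to 8.25, 8.38 and 8.43 (limma adjusted p = 6.04e-11). Ifit3, an antiviral protein, was at -0.96 ± 0.28 (limma adjusted p = 0.0395), a call lost without any 1 array of control replicates 1 or 2 or Dex 2 h replicates 1 or 3 (limma adjusted p of 0.141, 0.179, 0.184 and 0.142).

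Of 48 TGF-beta, activin, BMP, Wnt and Notch genes 6 rose and 11 fell (3 and 4 with all 21 arrays), or 35.4%, with a median of -0.13. The activin subunit gene Inhbb fell from 9.87, 9.80 and 10.19 to 8.09, 7.96 and 8.06, while Fst, follistatin, which binds and blocks activin, rose by 1.5 ± 0.14. A second Inhbb probe set changed by -0.70. In the BMP branch the signal carrier Smad1 rose (1.26 ± 0.15), the inhibitor Smad6 fell, and the target genes split, with Id2 up (1.07 ± 0.17) and Id3 down (-1.51 ± 0.18). In the Notch branch the ligand gene Jag1 (-0.90 ± 0.12), the receptor gene Notch1 (-0.60 ± 0.16) and the target gene Hes1, from 9.54, 9.34 and 9.66 to 7.90, 7.95 and 8.07 (-1.54 ± 0.15), fell. Notch1 was not called with all 21 arrays, and the listed genes Notch2, Notch3 and Hey1 were not among the called genes. The Wnt genes Fzd4 (-0.85 ± 0.11), Wnt5a (-0.56 ± 0.14), Fzd1 (-0.45 ± 0.09) and Axin2 (-0.44 ± 0.12) fell and the coreceptor gene Lrp6 rose (0.51 ± 0.15). Lrp6 was barely called (limma adjusted p = 0.0492). These Wnt genes were not called with all 21 arrays, and the other listed Wnt genes were not called in either fit.

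Of 30 amino acid and ion transporters 6 rose and 2 fell (2 and 1 with all 21 arrays), with a median of -0.04. The metal transporters moved in opposite directions. Slc39a14, an importer of zinc and iron, rose from 6.09, 6.23 and 6.15 to 8.71, 8.72 and 8.85 (2.60 ± 0.12), although its other probe sets above background rose by as little as 0.32. Slc40a1, the iron exporter ferroportin, fell from 9.28, 9.29 and 9.62 to 7.73, 7.65 and 7.75 (-1.68 ± 0.13). Scnn1a, a subunit of the epithelial sodium channel, rose by 1.03 ± 0.13. Of 29 unfolded protein and heat shock genes 6 rose and 2 fell (3 and 1 with all 21 arrays), with a median of 0.04. The metallothioneins led, with Mt1 at 1.01 ± 0.09 from a control level of 13.60 ± 0.05 (SD, n = 3). A second Mt1 probe set rose by 3.91. Chac1, which breaks down glutathione, rose by 0.99 ± 0.18, while Ddit3, the stress factor CHOP, fell by 0.86 on the log2 scale (SE 0.16).

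Of 37 cell cycle and growth arrest genes 2 rose and 3 fell, or 13.5% (1 and 1 with all 21 arrays), with a median of -0.04, and the cyclin-dependent kinase inhibitor Cdkn1a rose from 10.11, 10.07 and 9.70 to 12.24, 12.02 and 11.59 (1.99 ± 0.18). The polo-like kinase gene Plk2 fell from 7.43, 7.34 and 7.36 to 6.38 on each Dex array, and Cdkn2b, another kinase inhibitor, fell by 0.72 on the log2 scale (SE 0.14). Of 25 cholesterol synthesis genes 1 rose and 3 fell, or 16.0% (0 and 0 with all 21 arrays), with a median of -0.15, including Mylip, a ubiquitin ligase for lipoprotein receptors (-1.0 ± 0.12, limma adjusted p = 4.47e-06, and 0.157 with all 21 arrays). Insig1, a brake on sterol synthesis (-0.48 ± 0.14), was barely called (limma adjusted p = 0.0485) and was not called without any 1 of the 6 arrays (0.0661 to 0.226). Its relative Insig2 rose (0.53 ± 0.13, limma adjusted p = 0.0131), but was not called without control replicate 1 (0.0912), control replicate 2 (0.0677) or Dex 2 h replicate 2 (0.0925). Of 44 extracellular matrix genes 0 rose and 1 fell, or 2.27% (0 and 0 with all 21 arrays). At an unadjusted p under 0.05 these counts were 1 and 7. The called gene was Eln, elastin (-0.36 ± 0.10, limma adjusted p = 0.0196), not called without control replicate 1 (0.0993), control replicate 2 (0.0884) or Dex 2 h replicate 3 (0.122). Of 34 oxidative phosphorylation subunits limma called 0 in either direction, also at an unadjusted p under 0.05 and with all 21 arrays.

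**Figure D3:**
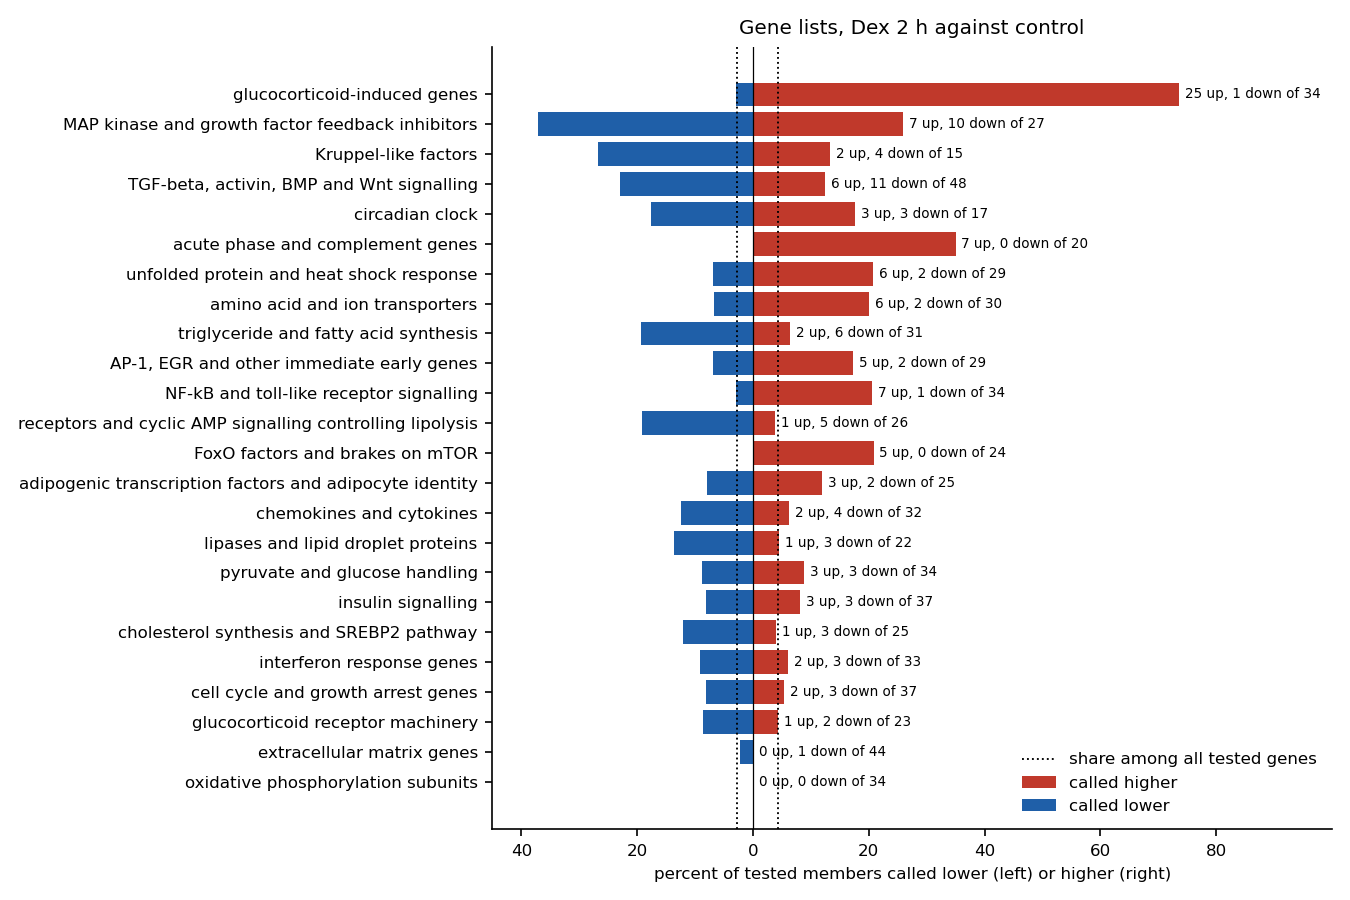
Percent of tested members called higher (red, right) or lower (blue, left) in Dex 2 h against control for each of 24 gene lists, with the counts beside each bar. Dotted lines give the share among all tested genes, 4.29% higher and 2.83% lower. The glucocorticoid-induced list has 25 up and 1 down of 34 while the oxidative phosphorylation list has 0 of 34. The lists were chosen with earlier results of these data known.

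To show where the early Dex response differs from an early inflammatory response, Dex 2 h was compared directly with TNF 2 h, without control arrays. In that comparison 1794 genes were called, 14.8% of those tested, 867 higher (7.13%) and 927 lower (7.63%) with Dex. The 3' minus 5' difference was 0.736 on TNF 2 h replicate 2, against 0.083 and 0.165 on its mates. Leaving out that replicate gave 994 higher and 784 lower, so the balance of directions depends on it. With all 21 arrays these were 726 (5.97%), 287 (2.36%) and 439 (3.61%). The genes with values here are from those also called in Dex 2 h against control, and other genes differed as much between the agents. Cxcl5 stood at 4.0 ± 0.19 (SD, n = 3) with Dex and 11.53 with TNF, a difference of at least -7.53 ± 0.18 (limma adjusted p = 3.87e-17). Ccl2 (-7.21 ± 0.20), Tnfaip2, a TNF-induced protein (-5.92 ± 0.21), Ccl7 (-5.67 ± 0.20) and Irf1 (-5.52 ± 0.10) were the next lowest among those genes. Errfi1 was higher with Dex by 5.44 ± 0.12, Gadd45g by 4.75 ± 0.13, Fkbp5 by 4.02 ± 0.12, Pdk4 by 3.75 ± 0.18 and Ccdc71l by 3.60 ± 0.12. Of the 32 chemokines and cytokines 1 was higher and 19 lower with Dex, and of the 34 NF-kB genes 2 and 22. Of the 24 FoxO and mTOR genes 9 were higher and 0 lower, Foxo1 by 2.06 ± 0.13 and Foxo3 by 2.02 ± 0.18.

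Other genes differed less between the agents at 2 h. Of the 522 genes that rose against control 117, and of the 344 that fell 163, were not called between the agents. Over all tested genes 14.8% were called there. Both comparisons share the Dex 2 h arrays, so these counts are no test. For genes alike with both agents, an effect of Dex and one of handling cannot be told apart. Hp reached 13.40 ± 0.10 (SD) with Dex and 13.19 with TNF, a difference of 0.20 ± 0.06 (limma adjusted p = 0.0365). G0s2 stood at 10.34 ± 0.23 and 10.69, a difference of -0.34 ± 0.19 that was not called. The difference of Zfp36 was -0.45 ± 0.15 and that of Lcn2 was -0.44 ± 0.35, neither called. Cebpa (-0.12 ± 0.19), Hes1 (-0.07 ± 0.15), Angptl8 (0.02 ± 0.22) and Sertad4 (0.04 ± 0.20) were also not called between the agents. Nfkbia (-0.88 ± 0.10) and Nfkbiz (-1.11 ± 0.12) were lower with Dex than with TNF, and Irs1 (-0.68 ± 0.14) too.

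**Figure D4:**
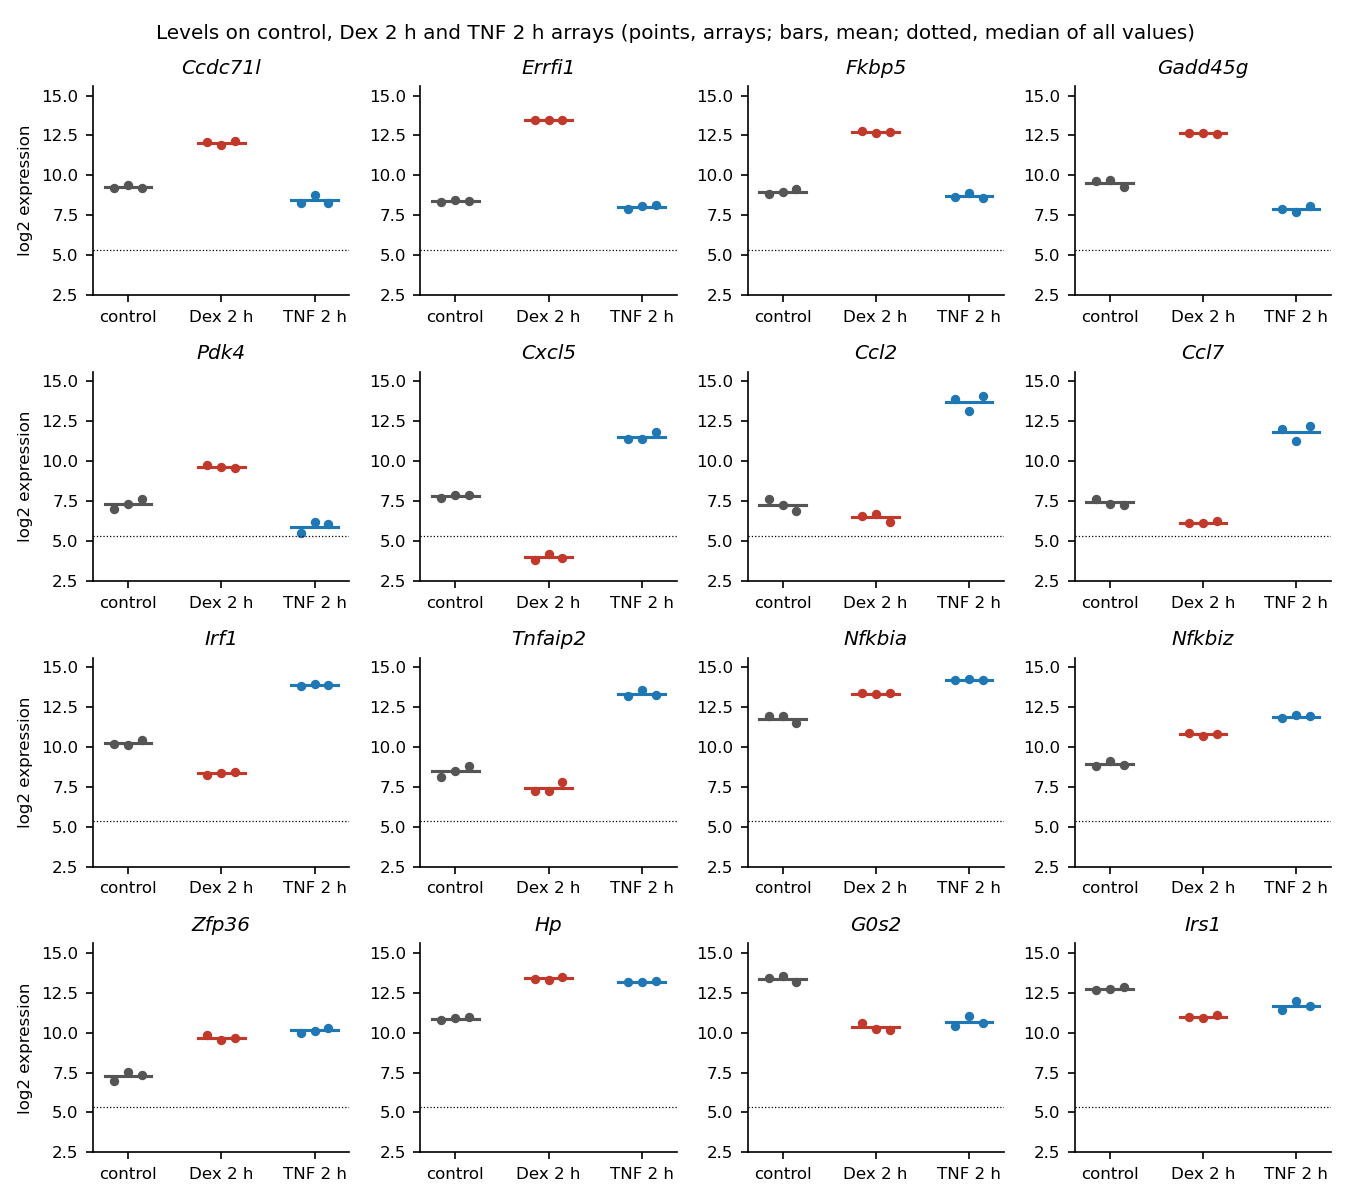
Log2 expression (vertical) of 16 genes on the control, Dex 2 h and TNF 2 h arrays, with 3 arrays per group as points, group means as bars and the median of all values as a dotted line. Cxcl5 stood at 4.0 with Dex and 11.53 with TNF, while the Hp levels of 13.40 and 13.19 lie close together.

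To see how far the early changes lasted, Dex 24 h was compared directly with Dex 2 h. The only control is labelled 0 h, so longer Dex and longer time in culture cannot be told apart, here or at 6 d. This comparison shares the Dex 2 h arrays with the main one, so values are given per gene. Over all tested genes 1640 were called, 13.5%, with 758 higher (6.24%) and 882 lower (7.26%) at 24 h. With all 21 arrays these were 440 (3.62%), 191 (1.57%) and 249 (2.05%). Of the 34 tested glucocorticoid-induced genes 8 were higher and 11 lower at 24 h than at 2 h. Among the other members were Fkbp5 (13.06 at 24 h and 13.01 at 6 d), Tsc22d3 (12.76 and 12.98), Sgk1 (11.65 and 11.70), Per1 (9.21 and 9.24) and Zbtb16 (10.22 and 10.59), which were not called between 2 h and 24 h. Nr3c1 also stayed at its lower level (10.38 and 10.47), with a difference of 0.02 ± 0.13. Errfi1 (-2.13 ± 0.12), Dusp1 (-1.77 ± 0.21) and Nfil3 (-1.90 ± 0.16) were lower at 24 h than at 2 h.

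Some genes that moved at 2 h were near the control level at 24 h. Setdb2 had means of 7.82, 11, 7.90 and 7.98 in control and at 2 h, 24 h and 6 d, and Bdnf had 6.17, 9.39, 6.66 and 6.33. Tiparp, an ADP-ribosyltransferase that had risen by 2.56 ± 0.11 at 2 h, was lower at 24 h by 2.78 on the log2 scale than at 2 h. In the other direction Cebpa, Irf1 and Dusp4 were higher at 24 h than at 2 h by 1.19 ± 0.19, 1.73 ± 0.10 and 2.02 ± 0.22, with 24 h means of 9.92, 10.09 and 6.72 against control means of 9.89, 10.26 and 6.71. G0s2 and Irs1 were higher at 24 h than at 2 h by 1.63 ± 0.19 and 0.85 ± 0.14, with 24 h means of 11.98 and 11.86 against 13.37 and 12.75 in control. Other genes went on in the direction of 2 h. Inhbb had means of 9.96, 8.04, 6.48 and 4.91 in control and at 2 h, 24 h and 6 d, and Hcar2 was lower at 24 h by a further 1.61 ± 0.22. Pnpla2, not called at 2 h, was higher at 24 h than at 2 h by 1.09 ± 0.08.

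**Figure D5:**
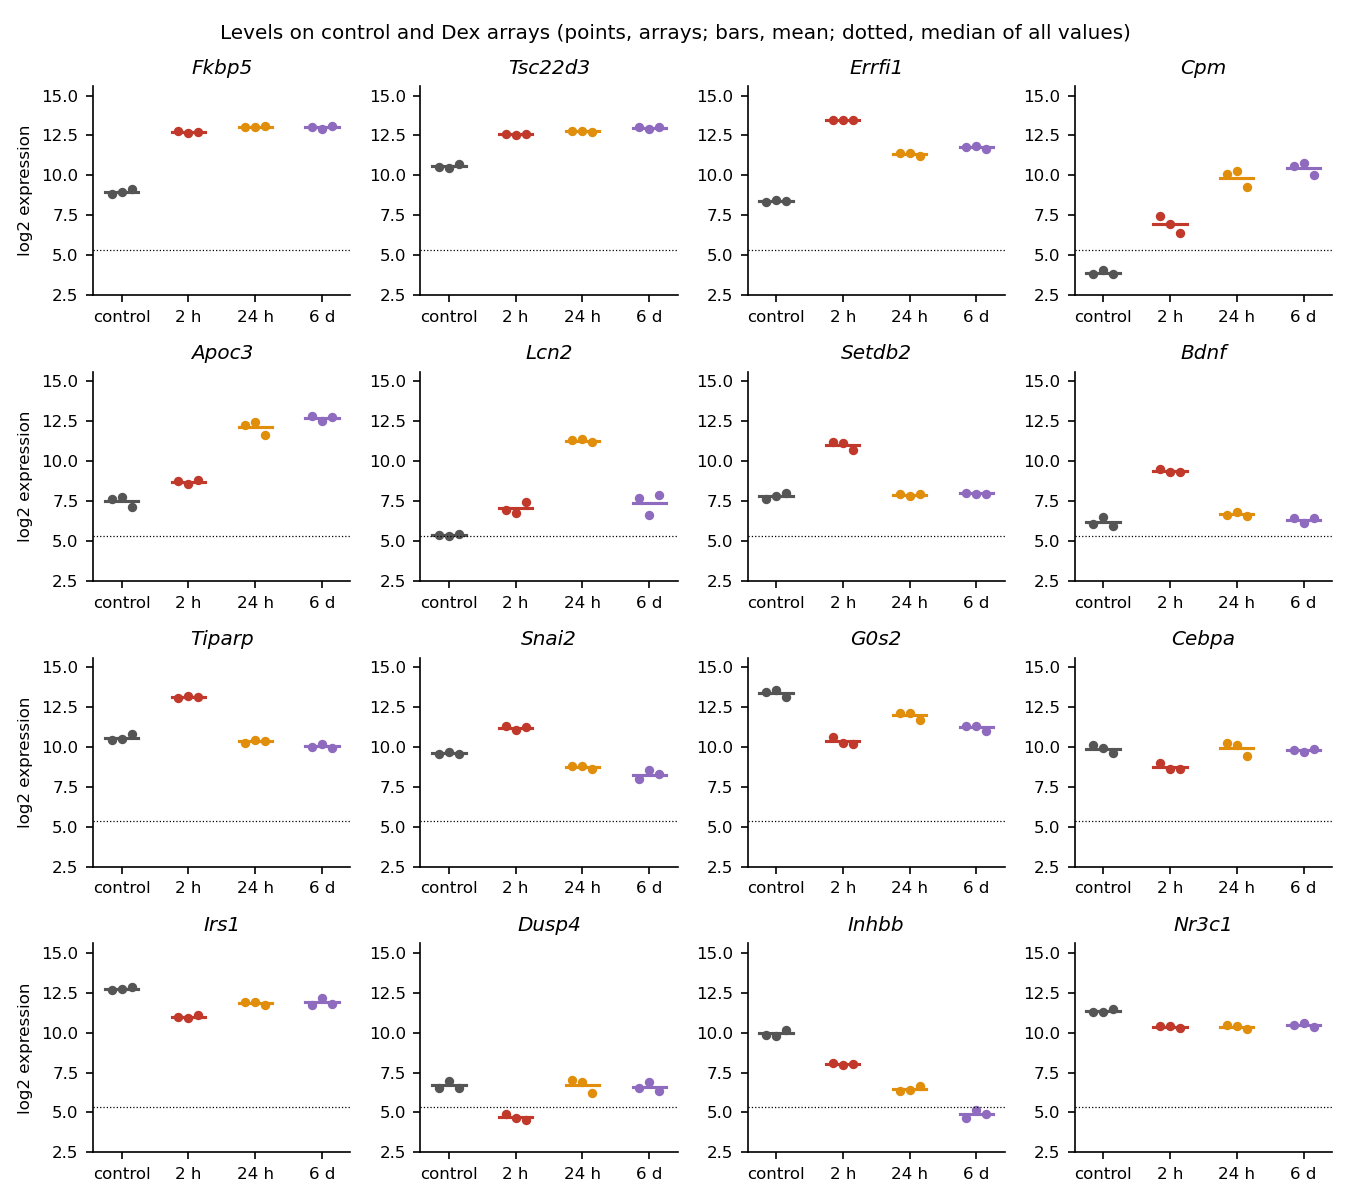
Log2 expression (vertical) of 16 genes on the control arrays and after 2 h, 24 h and 6 d of Dex, with 3 arrays per group as points, group means as bars and the median of all values as a dotted line. Fkbp5 has means of 12.73, 13.06 and 13.01 at the 3 times, Setdb2 is high at 2 h (11) and at 7.90 by 24 h, and Inhbb falls to 4.91 by 6 d.

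Of the 105 genes named by the rule, 45 had 2 or more probe sets above background, and in 44 of them all such probe sets changed in the same direction, the exception being Tnfrsf1b. In 11 they differed by at least 1 on the log2 scale, for example 1.11 and 4.05 for Cebpd and 0.28 to 2.32 for Tsc22d3, so the size of such changes depends on the probe set.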

How the data were processed

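RNA of 21 arrays of 3T3-L1 adipocytes was labelled as biotinylated cRNA, per the labels' protocols. The authors normalised the arrays by RMA (robust multi-array averaging), per the submitters' processing notes, with no version given. The deposited values were taken as log2 expression from their range up to 15.06. Of 45101 probe sets 34958 list 1 gene, 932 several and 9211 none. Each of 18194 genes was represented by its probe set with the highest mean, and 12156 with at least 3 arrays above the median of all values (5.34) were tested. Only 1 of them passed through the Dex 2 h arrays alone.

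A linear model with a mean per group was fitted to 20 arrays (R 4.3.3, limma 3.58.1), without TNF 6 d replicate 2, which earlier results of these data showed to stand apart. It had 13 residual degrees of freedom and moderation with a trend. The members and lists were chosen with earlier results of these data known. Named genes were the 15 highest and 15 lowest called genes with groups that do not overlap, up to 3 called members per list, a fixed set of targets, and, among genes called against control, 5 each way in both other comparisons. Data of 12156 genes were simulated for Dex 2 h against control, with independent normal noise at the fitted spread of each gene. The model recovered 56% of genes shifted by 0.5 in log2 units, 94% at 1, 100% at 2 and 100% at 4. In the simulation 2.23% of the calls were false. It held no outlying array and no correlation between genes, so that share cannot be carried over to the real calls. Arrays have no sequencing depth, and their number limits the precision. Arrays with the same replicate number did not deviate together in all pairs, so they were not treated as paired. No 2 arrays were duplicates.

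Other settings tried were other sets of arrays, a replicate block, other filters, the mean of probe sets, median centring, cyclic loess, other moderation, array weights, a 2-fold limit and leaving out each array. Probe sets of several genes or none were tested apart.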

Additional observations from a re-analysis of the deposited data

Results flagged for a closer look

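Of the genes called in Dex 2 h against control, 10 had the most different levels at 24 h and at 2 h of Dex, 5 each way. They are given here as Dex 24 h minus Dex 2 h in log2 units ± SE. Each was called by limma for that difference, but the genes were picked for its size, so the calls do not test them independently. Lcn2, the lipocalin, was higher at 24 h by 4.24 ± 0.35, the apolipoprotein gene Apoc3 by 3.41 ± 0.24, the cytochrome P450 gene Cyp2e1 by 3.06 ± 0.22, Cpm by 2.92 ± 0.25 and Ear3 by 2.78 ± 0.21. Lower at 24 h than at 2 h were Setdb2 (-3.10 ± 0.13), Tiparp (-2.78 ± 0.11), Bdnf (-2.73 ± 0.19), the collagen lysyl hydroxylase gene Plod2 (-2.56 ± 0.18) and the transcription factor gene Snai2 (-2.44 ± 0.14). No cause of these differences was tested, and longer Dex and longer time in culture cannot be told apart.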

How the results depend on the processing

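With all 21 arrays 301 genes were called for Dex 2 h against control, 726 against TNF 2 h and 440 for Dex 24 h against Dex 2 h, in place of 866, 1794 and 1640. Array weights, whose estimation stopped before it converged, gave 2191, 4621 and 4301, and an added limit of 2-fold gave 246, 552 and 342. Fitting only the groups compared changed the count by over 1.5 times for Dex 24 h against Dex 2 h alone (2929). Leaving out each array in turn gave 660 to 842, 1398 to 1778 and 1134 to 1323 calls. Apart from the replicate block with only the groups compared, given next, the other settings stayed within 1.5 times of the main counts. The cause of these shifts was not tested.

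Same-numbered control and Dex 2 h arrays correlated at 0.329, -0.179 and 0.316 in their deviations, so the numbers are not read as pairs. A replicate block in the model gave 941, 1935 and 1832 calls, and with only the groups compared 1007, 1668 and 3487.

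Of the 105 named genes 93 were called for Dex 2 h against control, 72 of them in every setting run except the 2-fold limit and 87 in every leave-out. Signs turned only for genes that were not called. With each array centred on its median Irs2 stood at 0.046, Slc2a4 at 0.022 and Adipoq at 0.017, and with cyclic loess Insr stood at -0.0019. Over the leave-outs Irs2 ran from -0.48 to 0.29, Insr from -0.044 to 0.12, Slc2a4 from -0.081 to 0.063 and Hsd11b1 from -0.020 to 0.16. Levels below 5.34 limit what can be said of falls in dim genes.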

Other observations

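Probe sets without a gene of their own were tested apart for Dex 2 h against control. Of 2515 that list no gene, 95 rose and 45 fell (5.57%), and of 604 that list several genes, 23 rose and 2 fell (4.14%), by limma adjusted over both kinds together.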
